A study of Mus musculus with 4 samples.

Results

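The nuclear-encoded subunits of the mitochondrial respiratory chain and ATP synthase were compared between intestinal epithelial cells with and without Ifnar1. Members were chosen by gene symbol: every probe whose platform symbol starts with Ndufa, Ndufb, Ndufc, Ndufs, Ndufv, Uqcr, Cox4, Cox5, Cox6, Cox7, Cox8 or Atp5, or is an Sdh subunit, without the Ndufaf assembly factors and without Atp5o. This gave 98 of 25697 probes, which stand for 79 of the 16593 genes with a named probe: 35 of complex I, 3 of complex II, 8 of complex III, 18 of complex IV and 15 of complex V. RNA was hybridised to 4 single-colour Illumina mouse bead arrays, 2 per group, and the samples were intestinal epithelium of C57BL/6 mice. One group had the genotype Csnk1a1_delta_gut Ifnar1+/+ (spelled Csnk1a_delta_gut for 1 of its samples) and the other Csnk1a1_delta_gut Ifnar1-/-. Both groups therefore lacked Csnk1a1, which encodes casein kinase 1 alpha, in the gut epithelium, and the titles call the first group WT although it carries that deletion. The deletion came from floxed Csnk1a1 and Vil1-Cre-ERT2, a Cre recombinase made in villin-expressing epithelium and switched on by tamoxifen, given at 120 mg/kg on consecutive days. Ifnar1, a chain of the type I interferon receptor, was deleted in every cell of the Ifnar1-/- mice, immune cells included. Cells were taken 5 days after the last injection, and the labels do not give the age of the mice at that time. The tissue label says colon, whereas the protocol takes the middle part of the small intestine. The breeding protocol writes Ifnar1+/+ for both crosses, so the knockout assignment rests on the titles and genotype labels. The labels do not say whether the arrays of a group came from separate animals, so the p-values speak of the spread among these arrays, and that spread may be technical.

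The respiratory chain passes electrons from NADH through complex I, and from succinate through complex II, to ubiquinone, then through complex III and cytochrome c to complex IV, which reduces oxygen. Complexes I, III and IV pump protons across the inner mitochondrial membrane, and complex V, the ATP synthase, uses their return to make ATP. Most subunits are encoded in the nucleus, and a few catalytic and membrane subunits in mitochondrial DNA; the chosen probes cover nuclear genes only. In the intestine, mitochondria supply ATP for nutrient uptake by absorptive enterocytes of the villus, and their gene expression is known to differ between crypt and villus cells.

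Promoters of respiratory chain genes are known for sites of nuclear respiratory factor 1 (NRF1), of the ETS protein GABP and of YY1. The shared letters are shown here for 6 members: the pair with the smallest p-values, Atp5pb and Cox7a1, and 4 named members that carry one of the motifs. Each line gives 250 bases before and 50 bases after the gene's start on the gene's own strand, from RefSeq, build GRCm38.p6. Capitals mark exact matches, on either strand, to the NRF1 palindrome, to CCGGAAGT (ETS) or to AAGATGGCG (YY1).
Atp5pb, chr3:105959214-105959513, minus strand: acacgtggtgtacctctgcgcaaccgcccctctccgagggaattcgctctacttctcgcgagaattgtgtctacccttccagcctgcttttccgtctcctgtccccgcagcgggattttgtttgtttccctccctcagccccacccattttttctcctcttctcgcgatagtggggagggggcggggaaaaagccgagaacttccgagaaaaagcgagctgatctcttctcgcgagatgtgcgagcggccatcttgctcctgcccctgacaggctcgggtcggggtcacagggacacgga
Cox7a1, chr7:30183921-30184220, plus strand: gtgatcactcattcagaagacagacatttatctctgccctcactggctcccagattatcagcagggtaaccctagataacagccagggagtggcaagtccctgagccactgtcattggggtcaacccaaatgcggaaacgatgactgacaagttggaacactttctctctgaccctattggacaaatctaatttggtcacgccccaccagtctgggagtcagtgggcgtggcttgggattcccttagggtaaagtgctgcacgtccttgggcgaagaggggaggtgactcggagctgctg
Atp5g2, chr15:102670998-102671297, minus strand: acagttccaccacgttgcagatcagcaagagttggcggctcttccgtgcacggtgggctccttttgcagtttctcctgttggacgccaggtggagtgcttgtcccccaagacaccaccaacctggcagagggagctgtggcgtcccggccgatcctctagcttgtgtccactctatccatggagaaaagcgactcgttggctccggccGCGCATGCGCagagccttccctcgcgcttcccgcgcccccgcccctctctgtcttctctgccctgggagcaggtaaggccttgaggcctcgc
Cox6a1, chr5:115348909-115349208, minus strand: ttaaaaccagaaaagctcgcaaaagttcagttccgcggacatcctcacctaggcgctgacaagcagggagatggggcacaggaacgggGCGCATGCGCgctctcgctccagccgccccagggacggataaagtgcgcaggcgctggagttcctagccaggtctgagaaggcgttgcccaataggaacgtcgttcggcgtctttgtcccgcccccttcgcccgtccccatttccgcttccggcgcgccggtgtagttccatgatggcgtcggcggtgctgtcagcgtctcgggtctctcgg
Ndufc1, chr3:51408906-51409205, minus strand: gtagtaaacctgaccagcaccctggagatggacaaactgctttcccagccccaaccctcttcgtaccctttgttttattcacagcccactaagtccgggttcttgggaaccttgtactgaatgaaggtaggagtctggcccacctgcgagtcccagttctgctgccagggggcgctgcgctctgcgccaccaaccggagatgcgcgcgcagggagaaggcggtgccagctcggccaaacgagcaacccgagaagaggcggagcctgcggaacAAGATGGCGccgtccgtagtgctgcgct
Cox8a, chr19:7217567-7217866, minus strand: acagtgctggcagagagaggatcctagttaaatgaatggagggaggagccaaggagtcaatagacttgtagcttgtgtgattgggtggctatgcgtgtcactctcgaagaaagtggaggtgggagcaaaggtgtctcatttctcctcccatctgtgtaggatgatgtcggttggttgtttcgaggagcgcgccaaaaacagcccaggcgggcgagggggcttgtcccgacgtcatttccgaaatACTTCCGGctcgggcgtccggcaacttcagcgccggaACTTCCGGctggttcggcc
The Atp5pb and Cox7a1 windows hold none of these letters, Atp5g2 and Cox6a1 hold the NRF1 palindrome, Ndufc1 holds the YY1 letters just after its start, and Cox8a holds the ETS letters at 2 places.

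A promoter was listed for 64 member genes. The NRF1 palindrome was present in 4 of them (6.25%), against 1.32% of the 17492 protein-coding genes with a listed promoter. The YY1 letters were present in 6 members (9.38%) against 1.94% of all, and the ETS letters in 5 (7.81%) against 5.29%. At least 1 of the 3 was present in 15 members (23.4%), against 8.26% of all promoters. The core of the interferon-stimulated response element, a pair of GAAA runs around 2 free bases, was present in 2 members (3.12%), Ndufa9 and Ndufs3, against 3.4% of all. The first listed start was used for each gene, none of the motifs contains another, and the median GC content was 57.3% in members and 56.3% in all. These matches describe letters in a window and not bound sites.

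The arrays had 11234 to 11954 detected probes, that is probes with a detection p-value under 0.05. The Ifnar1 probe had detection p-values above that on all 4 arrays, as did the Csnk1a1 probe, so neither probe checks the genotype labels, the Ifnar1 assignment included. Of the 3 probes for Ifnar2, the partner chain of the receptor, the brightest was at 6.17 and 5.30 in Ifnar1+/+ cells and at 5.77 and 5.58 in Ifnar1-/- cells, so the groups overlapped. Of 7 epithelial markers with a probe, all 7 were detected on every array, and 5 of them had a lower mean in Ifnar1-/- cells (list median -0.21). The Ifnar1-/- arrays differed from each other by more than 1 log2 unit in 623 of the 8442 genes tested, and the Ifnar1+/+ arrays in 143. Only 2 of the tested members differed so much between the Ifnar1-/- arrays, Cox7a1 and Atp5e, and 0 between the Ifnar1+/+ arrays. The medians of the complexes and of the mitochondrial lists are therefore given for each Ifnar1-/- array; since they are relative to the Ifnar1+/+ mean, the value of array 2 is also the value without array 1.

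Of the 79 member genes, 69 had a probe detected on at least 2 arrays and were tested. Most lay slightly lower in Ifnar1-/- cells: 52 of the 69 (75.4%) had a lower mean there, against 47.0% of all 8442 genes tested. The size was small, with a median log2 difference of -0.17 (quartiles -0.25 and -0.04), or a level of 0.888 of that in Ifnar1+/+ cells, against a median of 0.03 over all genes. The 2 groups of arrays did not overlap, with Ifnar1-/- below, in 28 members (40.6%), against 19.5% of all genes, and with Ifnar1-/- above in 8 members (11.6%), against 23.9%; over all genes 43.4% did not overlap in one direction or the other. In the limma fit over all genes, 0 members passed an adjusted p under 0.05, where the background was 0% of all genes. At an unadjusted p under 0.05 there were 2 members, both lower, Atp5pb and Cox7a1, which is 2.90% of the members against 9.52% of all genes in either direction and 5.27% for lower genes. No member was higher at that threshold, against 4.25% of all genes. The median standard error of a member was 0.232 log2 units, larger than the difference of most of them, and the 95% intervals of 67 of the 69 included 0. The p-values thus distinguished no single member from the spread between arrays after adjustment.

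The lower median was present on both Ifnar1-/- arrays, at -0.18 on array 1 and -0.15 on array 2, relative to each gene's Ifnar1+/+ mean. On array 1, 49 of 69 members lay below that mean, and on array 2, 50 did. Without Ifnar1-/- array 1, 50 members were lower, and without array 2, 49. The Ifnar1+/+ arrays had member medians of -0.0035 and 0.0035, and 37 of 69 members were lower on array 1 of these than on array 2. Set out by mean level, the 19 members from 10 to 12 log2 units had a median difference of -0.22 and the 26 from 12 to 14 of -0.16, where other genes had medians of 0.02 and 0.01. Over 14 log2 units the 6 members had a median of -0.16, and the 46 other genes were themselves lower, at -0.08. Among dimmer genes, the 8 members from 6 to 8 log2 units had a median of -0.14 with 5 lower, the 6 from 8 to 10 of -0.02 with 3 lower, and the 4 under 6 of -0.05 with 2 lower; other genes there had medians of 0.04, 0.04 and 0.01. The part of signal level in the members' shift was not tested.

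**Figure D1:**
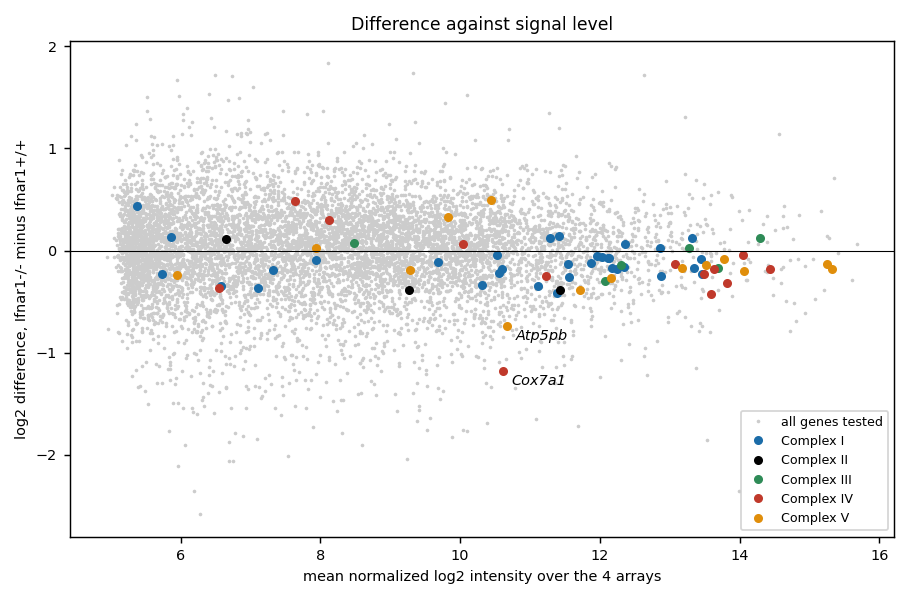
Each point is 1 gene, with its mean normalized log2 intensity over the 4 arrays on the x axis and its log2 difference, Ifnar1-/- minus Ifnar1+/+, on the y axis; grey points are all 8442 genes tested and coloured points the 69 members by complex. Most members above 10 log2 units lie just below 0, members from 8 to 10 units lie on both sides of it, and Cox7a1 and Atp5pb lie lowest among them.

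The complexes did not show the same pattern on both Ifnar1-/- arrays. Complex I had medians of -0.18 and -0.16 on Ifnar1-/- arrays 1 and 2, and complex V of -0.17 and -0.092. Complex IV was at -0.34 on array 1 and 0.0044 on array 2. Complex III was at -0.13 and 0.074, so its direction and that of complex IV rest on array 1. Complex II, with 3 genes tested, went the other way, at -0.14 on array 1 and -0.55 on array 2. Differences between complexes were not tested.

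**Figure D2:**
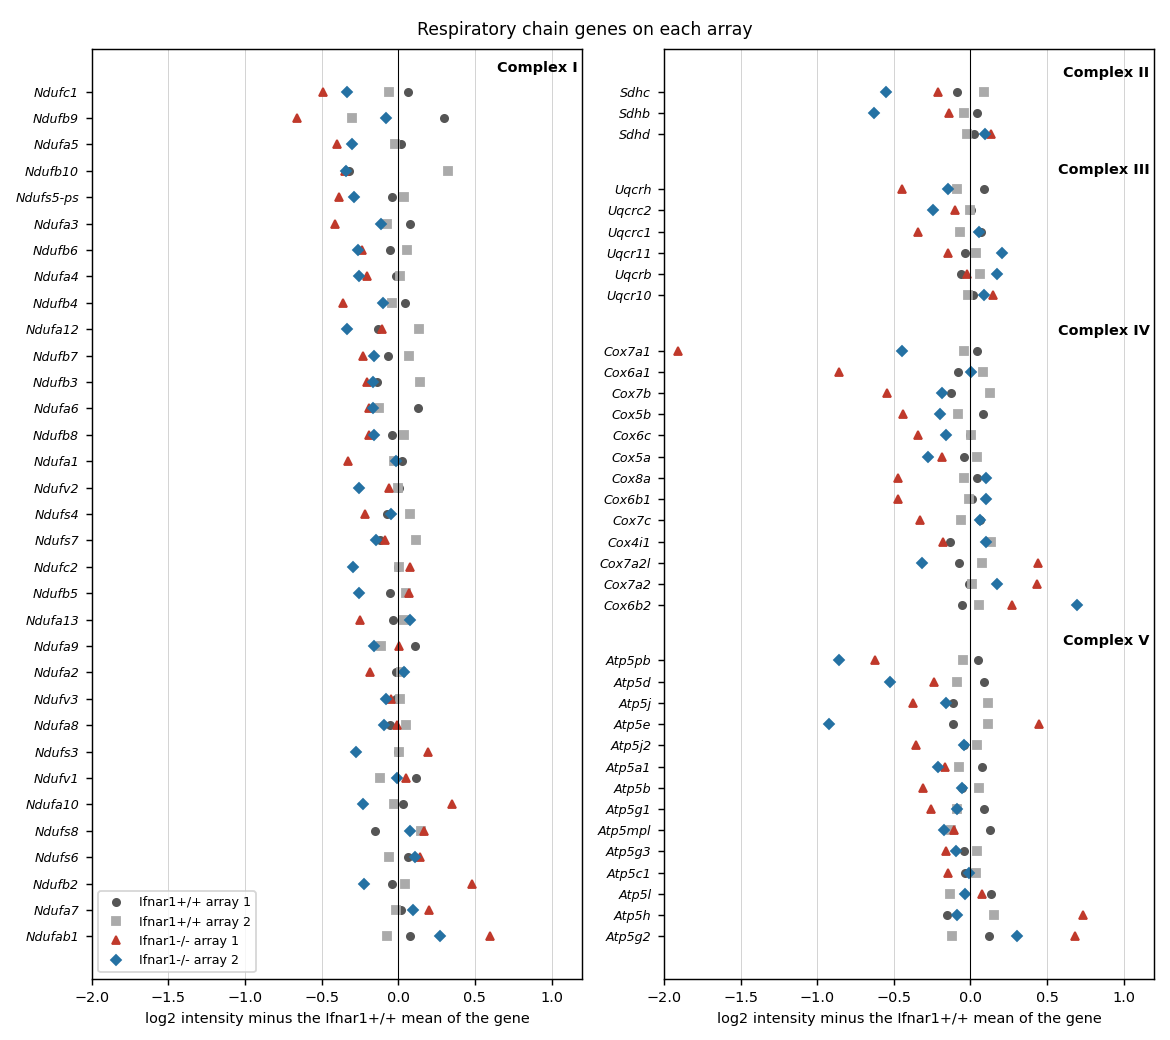
Each row is 1 of the 69 members tested, and the x axis gives its normalized log2 intensity on each of the 4 arrays minus its mean over the Ifnar1+/+ arrays. Complex I members cluster left of 0 on both Ifnar1-/- arrays, several complex IV members only on array 1, and Atp5pb stands well left of 0 on both.

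Complex I is the entry point for NADH. Of its 33 tested genes, 26 were lower in Ifnar1-/- cells and 7 higher, with a median of -0.13. At an unadjusted p under 0.05 there were 0, against 9.52% of all genes tested. The groups did not overlap in 17 genes, where 43.4% of all genes tested did not overlap in one direction or the other. Of these, 14 had Ifnar1-/- below (42.4%, against 19.5% of all genes) and 3 had it above (9.09%, against 23.9%). Ndufc1, a small accessory subunit of the membrane arm, had the smallest p of the complex. Its normalized log2 intensity was 11.65 and 11.53 with Ifnar1 present, and 11.10 and 11.26 on arrays of knockout cells. Both knockout values lay below both others, by -0.41 ± 0.23 (log2, SE, n = 2 per group; limma, adjusted p = 0.577).

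Ndufa5, an accessory subunit of the peripheral arm, lay at 11.32 and 11.28 in Ifnar1+/+ cells and at 10.89 and 11.00 in Ifnar1-/- cells, also without overlap (-0.35 ± 0.22, SE; limma, adjusted p = 0.615). A second Ndufa5 probe, much dimmer, differed by -0.30 but overlapped between groups, at 6.22 and 5.90 against 5.36 and 6.17. Ndufs5-ps, which the annotation names as a pseudogene of a complex I subunit and whose probe may share sequence with the gene itself, was at 10.45 and 10.52 against 10.10 and 10.20. Ndufa4, named with complex I and later assigned to complex IV, was at 13.56 and 13.59 against 13.37 and 13.32, a difference of -0.23 ± 0.22 (SE), also without overlap.

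Ndufab1, the mitochondrial acyl carrier protein, which is both a complex I subunit and a carrier in fatty acid synthesis, differed in the other direction. Its probe was above background on the Ifnar1-/- arrays alone, at 5.75 and 5.43, and had detection p-values of 0.0589 and 0.122 on the Ifnar1+/+ arrays. It thus passed the filter only through the group in which it was higher, so its difference of 0.44 (95% interval -0.14 to 1.01) is a description. The difference was 0.24 with an offset of 50 and 0.13 without background correction. The 5 tested core subunits, which carry the flavin and iron-sulfur centres or line the quinone site (Ndufv1, Ndufv2, Ndufs3, Ndufs7 and Ndufs8), had differences from -0.16 for Ndufv2 to 0.12 for Ndufs8, with 3 lower and a median of -0.04. The 26 accessory subunits, leaving out Ndufa4 and the pseudogene, had a median of -0.15, with 21 lower. This split was made after the values were seen and its difference was not tested. Among them Ndufb9 overlapped between the groups, and its difference of -0.37 had an SE of 0.32.

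Complex II, succinate dehydrogenase, is shared with the tricarboxylic acid cycle; Sdhb, Sdhc and Sdhd were analysed here. Sdhb, the iron-sulfur subunit, was at 9.49 and 9.41 in Ifnar1+/+ cells and at 9.31 and 8.83 in knockout cells. The groups did not overlap, but array 2 accounts for most of the difference of -0.38 ± 0.26 (SE; limma, adjusted p = 0.629). All 3 Sdhb probes were lower, the other pair by -0.30 and -0.31. The probe at -0.31 was above background on 2 arrays only and overlapped between groups, at 5.63 and 5.24 against 5.26 and 4.99. Sdhc, a membrane anchor, showed the same order, at 11.53 and 11.70 against 11.40 and 11.06 (-0.38 ± 0.24). Sdhd, the other anchor, was at 6.62 and 6.57 against 6.73 and 6.69, higher by 0.11 ± 0.22, with a 95% interval of -0.41 to 0.64. The median of the complex, -0.38, was -0.14 without Ifnar1-/- array 2 and -0.55 without array 1.

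Complex III passes electrons from ubiquinol to cytochrome c. Of its 6 tested genes, 3 were lower and 3 higher, with a median of -0.06 that became 0.074 without Ifnar1-/- array 1. Uqcrh, the hinge protein that binds cytochrome c1, was at 12.31 and 12.14 against 11.78 and 12.08 (-0.30 ± 0.24, SE; limma, adjusted p = 0.681). The core proteins Uqcrc1 and Uqcrc2 differed by -0.14 ± 0.25 and -0.17 ± 0.22. Uqcrc1 overlapped between groups, at 12.44 and 12.30 against 12.02 and 12.42, and its difference was 0.057 without Ifnar1-/- array 1. Uqcr10, a small subunit, was at 14.25 and 14.22 against 14.39 and 14.33, a difference of 0.12 ± 0.22 with a 95% interval of -0.41 to 0.65. That difference was -0.093 with median scaling of the arrays. Cyc1, the cytochrome c1 subunit that the symbol rule leaves out, was at 12.17 and 12.25 against 12.02 and 12.04 on the same scale.

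Complex IV, cytochrome c oxidase, has several nuclear subunits that exist as tissue isoforms. Of 13 tested genes, 10 were lower and 3 higher, with a median of -0.18; on Ifnar1-/- array 1, 10 of 13 lay below the Ifnar1+/+ mean, and on array 2, 6 of 13. The complex as a group therefore depends on array 1, without which the median was 0.0044. The muscle and heart isoforms Cox6a2 and Cox8b, the testis isoforms Cox7b2 and Cox8c, and Cox4i2, best known from lung, were not above background on any array, with raw signals of 112.4 to 159.1.

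Cox7a1, the isoform of subunit 7a that predominates in heart and skeletal muscle, was clearly detected and had the most negative difference of all members. Its raw signals were 2578.5 and 2046.1 in Ifnar1+/+ cells, but 844.8 and 1855.4 in knockout cells. On the normalized scale these were 11.24 and 11.15 against 9.29 and 10.75. Both knockout arrays lay below, array 1 far more so, and the difference was -1.18 ± 0.46 (SE; limma, adjusted p = 0.511). It was -0.44 without Ifnar1-/- array 1 and -1.91 without array 2. Of 7 striated muscle and heart markers, 5 were not above background on any array, Myh6, Myh7, Ckm, Tnni3 and Actc1. The summed level of the remaining pair, Acta1 and Mb, was 581.869 to 1297.2 in Ifnar1+/+ cells and 374.991 to 472.664 in Ifnar1-/- cells, in linear normalized intensity. Acta1 makes up nearly all of that sum, at 10.30 and 9.08 against 8.72 and 8.39 (log2), whereas Mb, barely above background, was at 5.32 and 5.33 against 5.67 and 5.26. Their part in the Cox7a1 result was not tested. Cox7a2, the widely expressed isoform of the same subunit, differed the other way. It was at 7.96 and 7.98 against 8.41 and 8.15, higher by 0.30 ± 0.23 (adjusted p = 0.666, limma), without overlap. The Cox7a2 difference was 0.27 with an offset of 50 and 0.21 without background correction.

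Several broadly expressed complex IV subunits were low on Ifnar1-/- array 1 alone. Cox6a1 was at 13.73 and 13.89 in Ifnar1+/+ cells and at 12.95 and 13.81 in knockout cells. The groups overlapped, the difference was -0.43 ± 0.33 (SE; limma, adjusted p = 0.668), and it was 0.0044 without array 1. A second Cox6a1 probe gave the same order, at 13.48 and 13.19 against 12.42 and 13.43. Cox6b1 was at 14.54 and 14.53 against 14.06 and 14.64, with a difference of -0.18 that was 0.10 without array 1. Cox8a was at 13.77 and 13.69 against 13.26 and 13.83, again -0.18 with all arrays and 0.10 without array 1. These genes fill separate structural positions in the enzyme, and all 3 lay within or above the Ifnar1+/+ values on array 2.

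Other complex IV members were lower on both knockout arrays or higher. Cox5b, which binds zinc, was at 14.06 and 13.90 against 13.54 and 13.78 (-0.32 ± 0.23, SE; limma, adjusted p = 0.649), without overlap. Cox7b was at 6.60 and 6.85 against 6.18 and 6.54 (-0.37 ± 0.25), also without overlap on this scale. Its probe was dim, and its raw signals overlapped, at 214.3 and 208.7 against 206.3 and 212.6. The Cox7b difference was -0.27 with an offset of 50 and -0.16 without background correction. Cox4i1, the main isoform of the largest nuclear subunit, overlapped, at 13.93 and 14.20 against 13.89 and 14.17. The difference of -0.04 turned to 0.10 when Ifnar1+/+ array 2 was left out and to 0.10 when Ifnar1-/- array 1 was. Cox6b2, known as a testis isoform, was the complex IV gene with the most positive difference. It was at 7.33 and 7.44 against 7.66 and 8.08, without overlap (0.48 ± 0.25; limma, adjusted p = 0.558). Only 1 of its 2 probes was above background. The Cox6b2 difference was 0.41 with an offset of 50 and 0.30 without background correction. Cox7a2l, a supercomplex factor rather than a subunit of the enzyme, was at 9.94 and 10.09 against 10.45 and 9.70, so its knockout arrays lay on either side of the Ifnar1+/+ arrays. Its difference of 0.06 turned to -0.01 when Ifnar1+/+ array 1 was left out and to -0.31 when Ifnar1-/- array 1 was.

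Complex V, the ATP synthase, had 14 tested genes, of which 11 were lower and 3 higher, with a median of -0.18. Atp5pb, subunit b of the peripheral stalk that holds the catalytic head still, had the smallest p of all members. Its raw signals were 2328.6 and 1858.5 in Ifnar1+/+ cells and 1645.5 and 1312.4 in knockout cells, and the normalized values 11.09 and 11.00 against 10.42 and 10.19. Both knockout arrays lay well below both others. The difference was -0.74 ± 0.23 (SE, n = 2 per group; limma, adjusted p = 0.499), a level of 0.599 of that in Ifnar1+/+ cells, with a 95% interval of -1.29 to -0.19. It ranged from -0.86 to -0.62 as each array was left out.

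Atp5j and Atp5h, members of the same stalk, differed less than Atp5pb. Atp5j, coupling factor 6, was at 12.18 and 12.41 against 11.92 and 12.13 (-0.27 ± 0.24), and its second detected probe differed by -0.20. Atp5h, subunit d of the same stalk, was at 9.51 and 9.82 against 10.40 and 9.58, high on Ifnar1-/- array 1 alone. Atp5j, Ndufb4 and Ndufs5-ps are the tested members on chromosome 16, which also carries Ifnar1. Atp5o, the stalk gene left out by the rule, lies near Ifnar1 on that chromosome. It was at 7.57 and 7.35 against 6.61 and 6.38, a difference of -0.96 ± 0.24 (limma, adjusted p = 0.459).

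The 3 genes Atp5g1, Atp5g2 and Atp5g3 encode the same mature c subunit of the rotor ring from separate precursors, and their differences did not share a sign. Atp5g2 had the most positive difference of all members, at 10.32 and 10.08 against 10.88 and 10.50, without overlap (0.49 ± 0.25, SE; limma, adjusted p = 0.556). Atp5g1 was at 13.35 and 13.18 against 13.01 and 13.18, overlapping, and Atp5g3 at 15.27 and 15.36 against 15.15 and 15.22, with differences of -0.17 ± 0.23 and -0.13 ± 0.22. The differences between these genes were not tested. In the catalytic head, Atp5a1 and Atp5b, the alpha and beta subunits, differed by -0.19 ± 0.22 and -0.18 ± 0.23, and Atp5c1, the gamma subunit, by -0.08 ± 0.22. Atp5d, the delta subunit of the central stalk, was at 11.99 and 11.82 against 11.67 and 11.38 (-0.38 ± 0.24, adjusted p = 0.613 in limma), without overlap. Atp5e, the epsilon subunit, was dim and below the detection limit on Ifnar1-/- array 2, at 5.95 and 6.17 against 6.51 and 5.14.

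**Figure D3:**
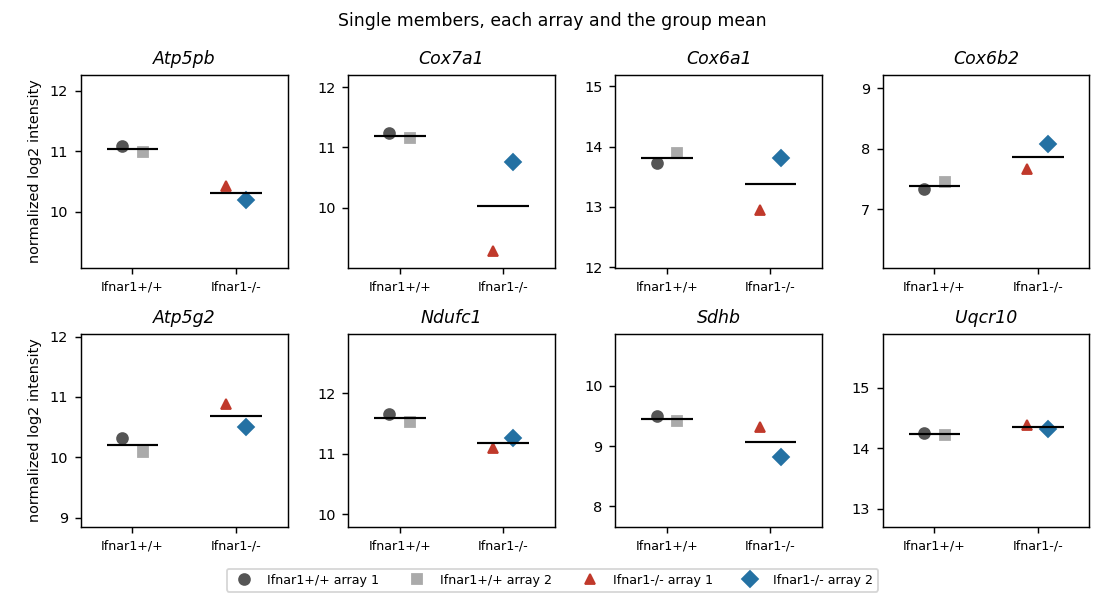
Normalized log2 intensity of 8 members on each array (points) with the group mean of 2 arrays (bar); every panel spans the same height in log2 units. Atp5pb and Ndufc1 are lower on both Ifnar1-/- arrays, Cox7a1 and Cox6a1 chiefly on array 1, Sdhb chiefly on array 2, and Cox6b2 and Atp5g2 are higher on both.

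For 11 members, several probes were above background, and in 10 of these all probes differed in the same direction. The exception was Ndufa8, with -0.05 and 0.0027. The 4 probes of Ndufs4, an accessory subunit of the NADH-oxidising arm, differed by -0.13, -0.18, -0.17 and -0.09. The 3 of Ndufv3 differed by -0.07, -0.23 and -0.31. The 10 members that were not tested were Ndufb11, Ndufs1, Uqcrfs1, Uqcrq, Cox4i2, Cox6a2, Cox7b2, Cox8b, Cox8c and Atp5k. Of these, Ndufb11 was above background on 1 array, Ifnar1-/- array 1, by 1 of its 2 probes, and the others on 0. For Ndufs1, a core subunit of complex I, and Uqcrfs1, the Rieske iron-sulfur protein, these probes therefore give no level. Counted with all 79 genes and no filter, the member median was -0.14.

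Other mitochondrial genes were read from the same fit. A first list held other subunits and carriers (cytochrome c, ubiquinone synthesis and electron transfer flavoprotein genes). Its 12 tested members had a median of -0.13 (-0.15 on Ifnar1-/- array 1 and -0.11 on array 2), with 9 lower. Of the 12, 0 passed an unadjusted p under 0.05, against 9.52% of all genes. Coq2, which attaches the side chain of ubiquinone, differed by 0.48 ± 0.23 (SE) and Etfdh, which feeds electrons from fat oxidation to ubiquinone, by -0.46 ± 0.24. Of 35 respiratory chain assembly factors, 14 had a lower mean, and the median was 0.04. The arrays disagreed, at 0.22 on Ifnar1-/- array 1 and -0.051 on array 2, where 24 of 35 lay below the Ifnar1+/+ mean. The complex III factor Ttc19 and the complex I factor Ecsit differed by 0.42 ± 0.23 and 0.55 ± 0.31.

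Mitochondrial ribosomal protein genes, which translate the subunits encoded in mitochondrial DNA, lay on the other side of 0. Of 69 tested, 53 (76.8%, against 53.0% of all genes) had a higher mean in Ifnar1-/- cells and 16 a lower one. Their median was 0.16, and 0 passed an unadjusted p under 0.05, against 9.52% of all genes. Mrpl37 differed by 0.48 ± 0.23 and Mrps35 by 0.43 ± 0.23 (SE). They stood at a median of 0.27 on Ifnar1-/- array 1 but 0.03 on array 2, where 31 of 69 lay below the Ifnar1+/+ mean, so the shift rests on array 1. Of 16 mitochondrial import genes, 9 were higher, with a median of 0.11 that was 0.14 on Ifnar1-/- array 1 and 0.014 on array 2. The receptor gene Tomm22 was higher at an unadjusted p (0.79 ± 0.30; limma, adjusted p = 0.511), but its Ifnar1+/+ arrays stood apart, at 10.95 and 10.19 against 11.33 and 11.38. The translocase gene Timm50 differed by 0.36 ± 0.24.

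In the tricarboxylic acid cycle and pyruvate dehydrogenase list, 8 of 15 genes were lower and the median was -0.07, but the arrays differed, at 0.10 on Ifnar1-/- array 1 and -0.32 on array 2. Complex II had the same order of the arrays. Cs, citrate synthase, which opens the cycle, was at 12.03 and 11.99 against 11.32 and 11.12. Both knockout arrays were lower, by -0.79 ± 0.23 (SE; limma, adjusted p = 0.492). Ogdh, of the oxoglutarate dehydrogenase complex, was at 11.85 and 11.65 against 10.76 and 11.22 (-0.76 ± 0.26; limma, adjusted p = 0.499). Among 17 regulators of mitochondrial biogenesis and mitochondrial DNA expression, 6 were lower and the median was 0.19, with 0.30 on Ifnar1-/- array 1 and 0.078 on array 2. Ppargc1a, which encodes the coactivator PGC-1alpha, a driver of respiratory chain genes in many tissues, was at 8.26 and 8.32 against 7.33 and 7.95 (-0.64 ± 0.28; limma, adjusted p = 0.524). Ssbp1, which binds single-stranded mitochondrial DNA, differed by 0.56 ± 0.27.

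**Figure D4:**
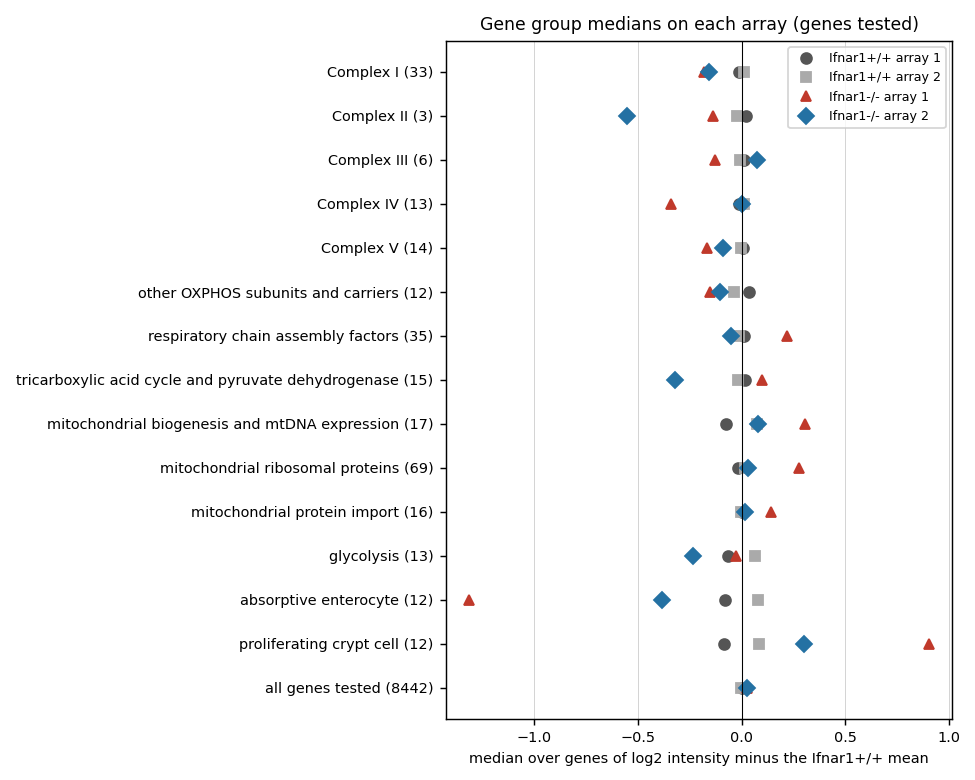
Median over the genes of each group of the normalized log2 intensity minus the gene's Ifnar1+/+ mean, for each of the 4 arrays; the number of genes tested is in brackets. Complex I and V medians lie below 0 on both Ifnar1-/- arrays, complex IV only on array 1 and complex II chiefly on array 2, while mitochondrial ribosomal protein genes lie above 0 on array 1; the absorptive enterocyte and proliferating cell lists show the largest separation of the arrays drawn.

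Markers of the cells in the preparation differed between the groups as well. Absorptive enterocyte markers were lower in 11 of 12 cases, with list medians of -1.31 on Ifnar1-/- array 1 and -0.38 on array 2. Their summed linear intensity was 133247 to 146858 in Ifnar1+/+ cells, 66251 on Ifnar1-/- array 1 and 117467 on array 2, and Fabp1 and Fabp2 were not above background on any array. Proliferating crypt cell markers were higher in 12 of 12 cases, with medians of 0.90 and 0.30, and summed intensities of 8355 to 9521 against 16975 and 11257. All 7 measured markers of T cells and intraepithelial lymphocytes had lower means, with summed intensities of 995.904 to 1188.32 against 318.917 and 546.076. Cd2, Cd8a, Gzma, Gzmb and Ptprc were not above background on any array. Cd3d of this list was above background on 2 arrays only (6.10 and 6.02 against 4.71 and 4.73). It thus passed the filter only through the group in which it was higher. The list median was -1.34, and -0.79 over 12 genes with no filter. Fibroblast and smooth muscle markers were lower in 5 of 6 cases (median -1.38), macrophage and dendritic cell markers in 2 of 2 (-1.23) and B and plasma cell markers in 2 of 2 (-0.63). With no filter these medians were -1.17, -0.40 and -0.33. Cd79b of the B cell list (5.80 and 5.72 against 4.97 and 4.75) likewise passed the filter only through Ifnar1+/+ arrays. For the fibroblast list the Ifnar1+/+ arrays stood far apart, with medians of 0.86 and -0.86. Its summed intensities were 3498 and 943 against 895 and 599, so the size of its median owes much to Ifnar1+/+ array 1. Paneth cell markers were higher in 4 of 4 (median 0.70, and 0.69 with no filter) and stem cell markers in 4 of 5 (0.57). The stem cell median was 0.40 with no filter and 0.33 with a detection p under 0.01 on all arrays. Lgr5 of this list was above background on 2 arrays only (5.27 and 4.86 against 6.91 and 5.44). It likewise passed the filter only through the group in which it was higher, here Ifnar1-/-. Goblet cell markers were lower in 4 of 5 (median -0.18, with 0.064 on Ifnar1-/- array 1 and -0.55 on array 2) and enteroendocrine markers in 6 of 7 (-0.25). The summed intensity of the complex IV members was 112167 and 114171 in Ifnar1+/+ cells, 84779 on Ifnar1-/- array 1 and 112162 on array 2, so it was lowest on the array with the lowest enterocyte sum. For complex I the sums were 127540 and 127433 against 118584 and 118264, nearly equal on the Ifnar1-/- arrays, whose enterocyte sums were not. Complex V (151359 and 155800 against 131389 and 143979) and complex III (54151 and 53069 against 51374 and 53898) were lowest on Ifnar1-/- array 1. Complex II (3773 and 4102 against 3446 and 2692) was lowest on array 2. Such linear sums give most weight to the brightest genes. In bulk RNA, fewer cells of a type and less RNA per cell cannot be told apart, and the part of these markers in the respiratory chain results was not tested.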

How the data were processed

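The authors deposited non-normalized intensity values and a detection p-value for each probe and array; GenomeStudio 1.8 is named in the submitters' processing notes, without its role. The deposited normalized intensity values served as an alternative, and gave the same member median as quantile normalization of the raw intensities without background correction (-0.14). Raw intensities were background corrected from the detection p-values, quantile normalized and log2 transformed by neqc (offset 16) from limma 3.58.1 in R 4.3.3, with statmod 1.5.0. The offset pulls differences of dim genes toward 0. Probes were kept (11884) if 2 or more of the 4 arrays had a detection p under 0.05, and each gene (8442) was read from its brightest kept probe. The platform annotation gave a single symbol to 23978 probes, several to 0 and none to 1719. For 23963 of these probes the symbol was found in the RefSeq gene table. For the probes' genome build the sources used here give no name.

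Groups were compared as Ifnar1-/- minus Ifnar1+/+ with lmFit and eBayes of limma on all 4 arrays, two-sided, without covariates, with Benjamini-Hochberg adjustment over all genes. Residual degrees of freedom were 2 and the prior 4.54; intervals are at 95%. The number of arrays limits the precision. Gene groups are described by counts and medians only. Members and lists were chosen with earlier results of these data known. Named members are the 4 with the smallest p in each complex, genes with tissue isoforms, the extremes and any member not above background in 1 group; for each mitochondrial and the glycolysis list the 2 genes with the smallest p are named, and Ifnar1, Csnk1a1 and Ifnar2. The same rule covered 2 genes of each marker list. These lists are given as counts instead, with only Acta1, Mb, Cd3d, Cd79b and Lgr5 given by value. Other members were named after their values were seen. The fit was tested on simulated data. At the adjusted threshold it recovered 2.8% of added differences of 1 log2 unit, 61.4% of 2 units and 89.2% of 4 units. The absence of calls among members therefore says little about differences of 1 log2 unit or less. All arrays lay on 1 chip, so no chip batch could be tested, and position on the chip follows the group. Replicate numbers were not shown to pair samples. Alternatives changed the values (raw intensities without background correction, median scaling, an offset of 50, the deposited normalized intensities), the filter (none, or a detection p of less than 0.01 on every array), the probe rule (mean over probes), the model (array weights, robust or trended moderation, a replicate block), the threshold (0.1), the samples (each array left out) and the membership of complexes. Plots and promoter searches used Python 3.11.15 and matplotlib 3.10.9.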

Additional observations from a re-analysis of the deposited data

How the results depend on the processing

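With all 4 arrays kept, no member passed an adjusted p under 0.05 in limma under any alternative, nor under 0.1 in the main fit. An unadjusted p under 0.05 was passed by 5 members without background correction and with the deposited values, and by 2 under the others. In the main fit 9.52% of all genes passed that threshold, and this share was not counted under the alternatives. For fits with an array left out, only differences are given. The median over all members was -0.14 without background correction, with an offset of 50, with the deposited normalized values and with no filter, and -0.24 with median scaling, against -0.17. Complex I was at -0.11 without background correction and with the deposited values, at -0.18 with median scaling and at -0.16 with the mean of a gene's probes; median scaling put complex III at -0.17 and complex V at -0.29. As each array was left out, the median ran from -0.18 to -0.13 over all members, from -0.18 to -0.088 for complex I, from -0.55 to -0.14 for complex II, from -0.13 to 0.074 for complex III, from -0.34 to 0.0044 for complex IV and from -0.17 to -0.092 for complex V. The cause of these shifts was not tested. Of 28 named members, 21 kept their sign throughout. The sign changed for Uqcr10 with median scaling (-0.093), for Cox7a2l without Ifnar1+/+ array 1 (-0.01) and without Ifnar1-/- array 1 (-0.31), and for Cox4i1 without Ifnar1+/+ array 2 (0.10). Without Ifnar1-/- array 1 it also changed for Cox4i1 (0.10), Cox6a1 (0.0044), Cox6b1 (0.10), Cox8a (0.10) and Uqcrc1 (0.057). Without Ifnar1-/- array 2 the same genes stood at -0.86 for Cox6a1, -0.47 for Cox6b1 and for Cox8a, and Cox7a2l at 0.44. With the replicate number as a block, 0 members were called, 2 had an unadjusted p under 0.05 and the median was -0.17. Same-numbered arrays had a correlation of deviations of -0.051, and with 2 numbers this cannot show a pairing. Dim probes limit Atp5e, Ndufab1, Ndufb2, Ndufb4 and the 10 members not tested. The difference of Cox7b, also dim, shrank from -0.37 to -0.16 without background correction. That of Cox6b2 shrank from 0.48 to 0.30 and that of Cox7a2 from 0.30 to 0.21.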

Other observations

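Glycolysis genes, read beside the respiratory chain, had a median log2 difference of -0.10, with 8 of 13 lower in Ifnar1-/- cells. Pfkp, a phosphofructokinase that commits sugar to glycolysis, was at 10.68 and 11.19 in Ifnar1+/+ cells and at 9.98 and 10.40 in knockout cells, a difference of -0.74 ± 0.28 (SE; limma, adjusted p = 0.511). Pkm, pyruvate kinase, was at 12.23 and 12.25 against 11.81 and 11.82 (-0.42 ± 0.22), with little spread within either group. Over the list the median stood at -0.03 on Ifnar1-/- array 1 but -0.23 on array 2, the same order of the arrays as in complex II and the tricarboxylic acid cycle list.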
